A study of Homo sapiens with 8 samples.

Results

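BT549 cells made resistant to Acetalax by chronic exposure (CE cells) were compared with their parental BT549 cells, both without drug, in 1 RNA-seq library each. These are 2 of the 8 libraries of the series, chosen by their labels alone, and the comparison covers 12862 of 55679 gene identifiers, those whose level averaged 1 CPM or more over the 4 BT549 libraries, where CPM is the count on a gene scaled to its library's counts on all genes. BT549 is a human triple-negative breast cancer line of mesenchymal type. Acetalax (oxyphenisatin acetate) is a laxative withdrawn from use that kills some breast cancer lines. The CE cells had been grown in rising concentrations of Acetalax up to 40 μmol/L and then kept without it for 2 weeks before RNA was taken, while the parental cells had not been through this exposure. A second pair of libraries, CE and parental BT549 cells after 1 μmol/L Acetalax for 6 hours, shares no library with the first and is given beside it for each gene named. For most named genes the rule used both pairs, so that their agreement was set by the choice and supports nothing. The same 4 conditions exist for MDA-MB468, another triple-negative line with epithelial features, and are used only to ask whether a difference was also found there. All CE libraries of BT549 come from 1 selected population, so what selection did in this population cannot be told apart from what it would do in others.

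In the study's account the drug acts on TRPM4, a cation channel of the plasma membrane that opens on a rise of calcium inside the cell and lets sodium in. Cells kept in a drug can come to differ from their parents in the drug's target, in its transport or metabolism, and in stress defences. Interferon-stimulated genes, which lead the results here, belong to innate immunity: interferons bind receptors at the cell surface, JAK kinases activate transcription factors in the cell, and these switch on genes of antiviral defence and antigen presentation. Many tumour lines keep some of these genes on without added interferon.

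With 1 library per condition, the difference in the untreated pair has no replicate check. It is given as the ratio of CPM scaled by the trimmed mean of M values (TMM), with an exact 95% interval that covers counting error only, or as the log2 ratio after adding 0.5 CPM, and a gene was counted when it differed by 2-fold or more. Where a group has a pair of values, the library without drug comes first and the one after Acetalax second. The words rose and fell are kept for genes called by edgeR's quasi-likelihood test of the CE term over the 4 BT549 libraries, with the drug as a covariate and a Benjamini-Hochberg adjusted p under 0.05. That fit has 1 residual degree of freedom, which is the amount by which the CE difference depends on the drug. Its p-values therefore measure how alike the CE difference is in the 2 pairs, and not a spread between replicates of a condition. An alternative edgeR fit over all genes with a count also called genes whose 2 pairs went in opposite directions. Its calls, where given below, do not show that the pairs are alike. Nothing says that the libraries came from separate cultures. The libraries held between 42261122 and 54241728 counts on genes, so that 1 CPM stood for 42.3 to 54.2 counts. The CE library after Acetalax stood apart from the other 3, with the lowest scaling factor (0.8923 against 1.016 to 1.074) and the fewest genes with a count (25485), and the untreated pair does not contain it.

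Both BT549 populations carried the markers of the line. VIM was at 1236 CPM in parental and 850 CPM in CE cells without drug, ZEB1 at 80.2 and 57.5 CPM, and CDH2 at 207 and 108 CPM. The oestrogen and progesterone receptor genes ESR1 and PGR were under 1 CPM in all 4 libraries, as were the epithelial genes CDH1, EPCAM, ESRP1 and GRHL2. In the edgeR fit over all genes with a count, PGR, CDH1 and GRHL2 were called higher (adjusted p = 1.99e-05, 0.0131 and 0.0206). Not all epithelial markers were low: of 14 of MDA-MB468 type 3 averaged 1 CPM or more. Their sum was 298 and 373 CPM in parental and 258 and 500 CPM in CE cells, and the highest member reached 493 CPM. Of 22 blood cell markers 2 averaged 1 CPM or more, and the summed level of the whole list lay between 5.59 and 7.55 CPM in the 4 libraries. None of 9 measured endothelial markers did, with sums between 0.635 and 1.3 CPM. Of 8 melanocyte markers 2 did, and their sum was lower in CE cells (10 and 7.67 CPM) than in parental cells (24.6 and 23 CPM), mostly through MITF, a transcription factor gene at 22.1 and 18.4 CPM in parental and 8.29 and 5.43 CPM in CE cells.

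TRPM4 (ENSG00000130529, chromosome 19, 49660998 to 49715093 on the plus strand, hg19) was higher in CE cells. Its RNA was at 18.7 CPM in parental and 31.1 CPM in CE cells without drug, a ratio of 1.66 (95% interval 1.53 to 1.81), and at 14 and 23 CPM after Acetalax, a ratio of 1.64 (1.48 to 1.81). Both CE libraries lay above both parental libraries. TRPM4 rose by a log2 fold change of 0.70 ± 0.15 (SE; edgeR adjusted p = 0.0165) and stayed under the 2-fold limit. In MDA-MB468 the log2 ratio without drug was 0.24, and the difference between the lines did not pass the test (edgeR adjusted p = 0.184). These values are of RNA and say nothing of the protein. By western blot the study found TRPM4 protein nearly absent from the CE cells of both lines. It describes the TRPM4 transcripts of these cells as unchanged. The TRPM4 RNA values that it lists for untreated cells are nevertheless higher in CE than in parental cells of both lines. TRPM7, the other member of this channel family with a mean of at least 1 CPM, had log2 ratios of 0.03 without drug and 0.10 after Acetalax.

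Between the 2 untreated libraries 951 genes were 2-fold or more higher in CE cells (7.39% of 12862) and 509 were lower (3.96%). In the treated pair 975 genes were higher (7.58%) and 586 lower (4.56%). The 2 pairs shared 719 higher genes (5.59% of genes used) and 306 lower genes (2.38%), or 597 and 398 with scaling by the total count, which with TMM is 75.6% of the higher and 60.1% of the lower genes of the untreated pair. Among the genes higher without drug 98.5% had the same sign after Acetalax, and among those lower 92.1% did. Across genes the log2 ratios of the pairs had a Pearson correlation of 0.857, a description only, since genes are not independent and all libraries share 1 line. The edgeR fit called 2206 genes higher (13.0% of 16932 tested) and 1621 lower (9.57%) in CE cells, among them 897 of the 951 and 425 of the 509. Scaling by the total count on genes instead of TMM moved that split to 1712 higher and 2072 lower, and moved the median of all genes from 0.03 to -0.05 without drug and from 0.06 to -0.13 after Acetalax, so small differences depend on the scaling.

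**Figure D1:**
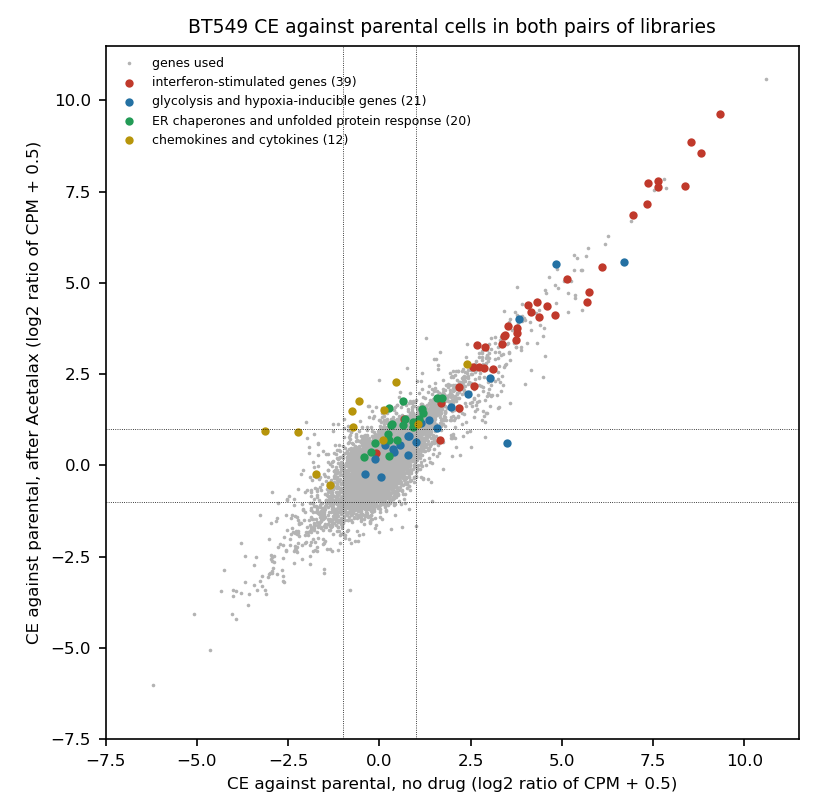
Log2 ratio of CE to parental BT549 cells without drug (x axis) and after Acetalax (y axis) for each gene used, computed from CPM after adding 0.5, with members of 4 gene lists in colour and dotted lines at 2-fold. Interferon-stimulated genes (red) run along the diagonal with medians of 3.78 and 3.81, while chemokines and cytokines (yellow) have medians of -0.63 without drug and 1.09 after Acetalax.

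The largest differences were rises from near silence. A log2 ratio of at least 5 in both pairs was found for 28 higher genes and for 1 lower gene, and of at least 7 for 12 higher genes and no lower gene. TIMP3 (chromosome 22, 33197687 to 33259030, hg19), which encodes a matrix-bound inhibitor of metalloproteinases, was at 0.0881 CPM (4 counts) in parental and 914 CPM (50357 counts) in CE cells without drug, and at 0.134 and 977 CPM after Acetalax. The ratio without drug was 10371 (95% interval 4050 to 38064), and TIMP3 rose in the fit over the 4 libraries (edgeR adjusted p = 3.04e-06). The gene lies within an intron of SYN3, which is read from the other strand. In MDA-MB468 the same gene was at 69 CPM in parental and 13.7 CPM in CE cells, a log2 ratio of -2.30 in the opposite direction.

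CHRDL1, which encodes a secreted antagonist of bone morphogenetic proteins, had no count in either parental library and was at 111 and 115 CPM in the CE libraries. Against a floor of 3 counts in the parental library it was at least 1685-fold higher without drug. CHI3L1, a secreted chitinase-like glycoprotein, was at 0.11 and 0.157 CPM in parental and 112 and 123 CPM in CE cells. SLC1A6, a glutamate transporter, was at 0.11 and 0.0448 CPM in parental and 71.5 and 56.3 CPM in CE cells. MMP2, a gelatinase that cleaves type IV collagen, had 0 counts in the untreated parental library and 1950 in the untreated CE library, at least 535-fold higher. These genes were named for their ratios in both pairs, which fixes that parental and CE libraries do not overlap. Of the 15 protein-coding genes with the largest rises 9 were in the list of interferon-stimulated genes. IFI16, an interferon-inducible DNA sensor outside that list, was at 0.132 and 0.224 CPM in parental and 145 and 140 CPM in CE cells.

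**Figure D2:**
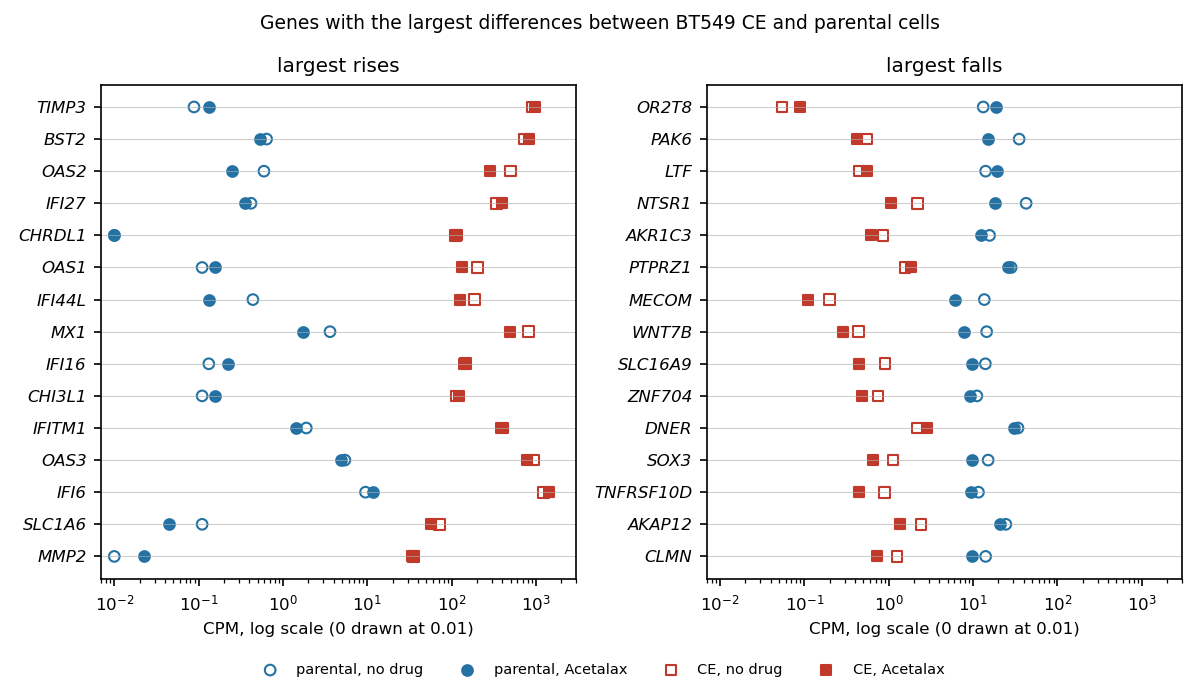
CPM on a log scale in the 4 BT549 libraries for the 15 protein-coding genes with the largest rises (left) and the 15 with the largest falls (right); circles are parental and squares CE cells, open without drug and filled after Acetalax, and a CPM of 0 is drawn at 0.01. The genes were chosen for their ratios in both pairs, which sets the gap between parental and CE libraries, and the rises span wider distances than the falls.

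Switching on and off was unequal. With limits chosen after the values were seen, 40 genes were under 0.5 CPM in both parental libraries and at 5 CPM or more in both CE libraries, and 6 were the reverse. Of the 40 genes 38 were protein-coding, 5 were in the interferon list and 9 lay on chromosome X, or 22.5%, beside 3.34% of all genes used. Genes on X among them were CHRDL1, WBP5, TCEAL8, MAGEA12, CSAG1, ITM2A, KAL1 and MST4. MAGEA12 and CSAG1 are neighbouring cancer-testis genes, normally silent outside the germ line, and MAGEA12 was at 0.198 and 0.246 CPM in parental and 9.14 and 10.7 CPM in CE cells. Of 24 cancer-testis genes 11 had no count in any BT549 library and 3 averaged 1 CPM or more. Of these 3, MAGEA12 and MAGEA3 were 2-fold higher in both pairs and 0 were lower, beside 5.59% and 2.38% of all genes. edgeR called 3 of 4 tested members higher and 0 lower, beside 13.0% and 9.57%. MAGEA genes are near-identical copies whose reads may be split or lost in counting. The 6 genes that went the other way were OR2T8, WNT7B, MECOM, APBA2, ANO1 and PGM5.

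Interferon-stimulated genes had the highest median of the 50 lists with a median. All 40 listed genes were measured and 39 averaged 1 CPM or more, with a median log2 ratio of 3.78 without drug and 3.81 after Acetalax, beside 0.03 and 0.06 over all genes used. In both pairs 36 of the 39 were 2-fold or more higher and 0 were lower, against 5.59% and 2.38% of all genes. The edgeR fit called 39 of 40 tested members higher and 0 lower, beside 13.0% and 9.57% of all genes tested. Under the alternatives run, from 38 to 39 of them were called higher. Summed over the list, the level went from 533 CPM in parental to 9440 CPM in CE cells without drug, and from 461 to 8198 CPM after Acetalax. ISG20, an exonuclease that degrades RNA, was the exception, at 2.97 and 2.82 CPM in parental and 2.74 and 3.75 CPM in CE cells (edgeR adjusted p = 0.785).

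Promoters of 3 of these genes are shown because they hold the letters GAAA, any 2 bases and GAAA, the core of the interferon-stimulated response element, which transcription factors activated by interferon are known to bind. Each is the 250 bases before the gene's start in RefSeq's GRCh38.p14 annotation, a build other than that of the counts, printed along the gene's own strand with matches on either strand in capitals.
BST2, chr19:17405631-17405880, minus strand: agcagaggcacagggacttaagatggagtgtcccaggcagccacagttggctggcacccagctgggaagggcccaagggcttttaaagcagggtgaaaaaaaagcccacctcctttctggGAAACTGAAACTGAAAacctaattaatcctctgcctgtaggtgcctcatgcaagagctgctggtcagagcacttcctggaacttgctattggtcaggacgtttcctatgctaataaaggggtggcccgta
IFI27, chr14:94110486-94110735, plus strand: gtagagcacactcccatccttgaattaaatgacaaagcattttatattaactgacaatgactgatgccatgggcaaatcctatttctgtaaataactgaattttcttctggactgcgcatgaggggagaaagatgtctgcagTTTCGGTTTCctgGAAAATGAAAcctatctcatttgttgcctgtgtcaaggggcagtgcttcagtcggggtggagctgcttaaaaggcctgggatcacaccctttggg
IFI6, chr1:27672193-27672442, minus strand: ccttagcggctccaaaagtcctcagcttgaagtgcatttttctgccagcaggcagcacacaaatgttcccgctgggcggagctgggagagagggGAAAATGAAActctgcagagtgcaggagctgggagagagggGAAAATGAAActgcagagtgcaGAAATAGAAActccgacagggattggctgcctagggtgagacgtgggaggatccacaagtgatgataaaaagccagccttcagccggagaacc
BST2 has 2 overlapping matches, IFI27 has 2, 1 of them on the opposite strand, and IFI6 has 3. These letters occur on either strand in 3.07% of 27305 RefSeq promoters of that length. A promoter was found for only 31 of the 39 members used, under the 80% needed, so no share is given for the list. A match is a description of the letters, not evidence of binding.

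Restriction factors that act on virus particles or their entry were among the genes with the widest differences. BST2 encodes tetherin, which holds budding virions at the cell surface. It was at 0.639 and 0.538 CPM in parental and 735 and 816 CPM in CE cells, 1151-fold higher without drug (95% interval 801 to 1719). IFITM1, a membrane protein that blocks viral fusion, was at 1.89 and 1.43 CPM in parental and 390 and 410 CPM in CE cells. MX1, a dynamin-like GTPase that blocks viral nucleocapsids, was at 3.61 and 1.75 CPM in parental and 811 and 497 CPM in CE cells, 225-fold higher without drug (193 to 263). All 3 rose (edgeR adjusted p between 3.04e-06 and 4.93e-06). IFITM genes share long stretches of sequence, and reads that fit more than 1 of them were not counted.

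Enzymes and sensors of double-stranded RNA were higher by amounts that varied from gene to gene. OAS1, OAS2 and OAS3 encode synthetases that make 2′-5′-linked oligoadenylate on double-stranded RNA and so activate ribonuclease L. OAS2 was at 0.595 and 0.246 CPM in parental and 496 and 281 CPM in CE cells, 834-fold higher without drug (573 to 1266). OAS1 was at 0.11 and 0.157 CPM in parental and 202 and 131 CPM in CE cells, and OAS3 at 5.42 and 4.93 against 942 and 777 CPM. IFIH1, which encodes the RNA sensor MDA5, rose from 5.48 and 4.08 to 101 and 95.8 CPM. DDX58, which encodes the sensor RIG-I, had log2 ratios of 1.66 without drug and 0.69 after Acetalax, and rose by the test (edgeR adjusted p = 0.0265).

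IFI27 and IFI6 encode small proteins of the same interferon-induced family. IFI27 was at 0.418 and 0.358 CPM in parental and 340 and 395 CPM in CE cells, 813-fold higher without drug (521 to 1351). IFI6 was at 9.51 and 11.6 CPM in parental and 1232 and 1407 CPM in CE cells, 129-fold higher (118 to 143).

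Signalling genes of the interferon response were higher too. STAT2, a transcription factor activated at the receptor, was at 17.4 and 13.2 CPM in parental and 107 and 61.2 CPM in CE cells. IRF9, its DNA-binding partner, was at 3.79 and 4.37 CPM in parental and 6.37 and 11.1 CPM in CE cells (edgeR adjusted p = 0.0225). IRF7, which amplifies interferon production, rose from 3.72 and 4.17 to 57.5 and 56.8 CPM. USP18, which switches the receptor signal off, rose from 1.08 and 0.627 to 27.4 and 20.1 CPM.

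Interferons and their receptors were looked at after these values were seen, outside the rule for named genes. Of 21 interferon genes 8 had no count in any of the 4 BT549 libraries and the highest count of any was 210, for IFNE, whose level was 2.71 and 4.7 CPM in parental and 1.02 and 2.79 CPM in CE cells. IFNB1, the interferon that most cell types can make, had 3 and 3 counts in parental and 12 and 29 counts in CE cells, that is at most 0.643 CPM. Its adjusted p was 0.0285 with edgeR and 0.197 with DESeq2. The receptor gene IFNAR1 was at 43.4 and 37.5 CPM in parental and 45.3 and 42.7 CPM in CE cells (edgeR adjusted p = 0.651), and the kinase genes JAK1 and TYK2 also did not pass the test (0.112 and 0.273), though JAK1 did in the edgeR fit over all genes with a count (0.0342). IFNGR2, a chain of the interferon gamma receptor, rose from 22.7 and 19.3 to 36 and 65.4 CPM (edgeR adjusted p = 0.0184) and overlaps a gene on the opposite strand, and the kinase gene JAK2 fell from 42.1 and 28.2 to 30.1 and 13.9 CPM (0.0212).

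Among sensors upstream of interferon the directions were mixed. TMEM173, which encodes STING, the adaptor for cytosolic DNA, rose from 7.53 and 5.24 CPM in parental to 38.5 and 27.9 CPM in CE cells (edgeR adjusted p = 1.74e-04). MB21D1, which encodes cGAS, the enzyme that detects such DNA, fell from 31.2 and 31.6 to 15 and 20.1 CPM (edgeR adjusted p = 0.0109). TLR3, the endosomal receptor for double-stranded RNA, rose from 0.815 and 0.179 to 5.84 and 0.997 CPM (edgeR adjusted p = 0.00213).

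The difference in interferon-stimulated genes was not seen at this size in the other line. In MDA-MB468 the list's median log2 ratio of CE to parental cells was 0.17 without drug and 0.12 after Acetalax. An edgeR test of the difference of the CE term between the lines, over all 8 libraries with a drug term for each line and 2 residual degrees of freedom, called 35 of 40 members higher in BT549 and 0 lower, beside 7.30% and 4.90% of 19693 genes tested. MX1 was at 31.4 CPM in parental and 39.9 CPM in CE cells of MDA-MB468 without drug, above its level in parental BT549 cells.

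**Figure D3:**
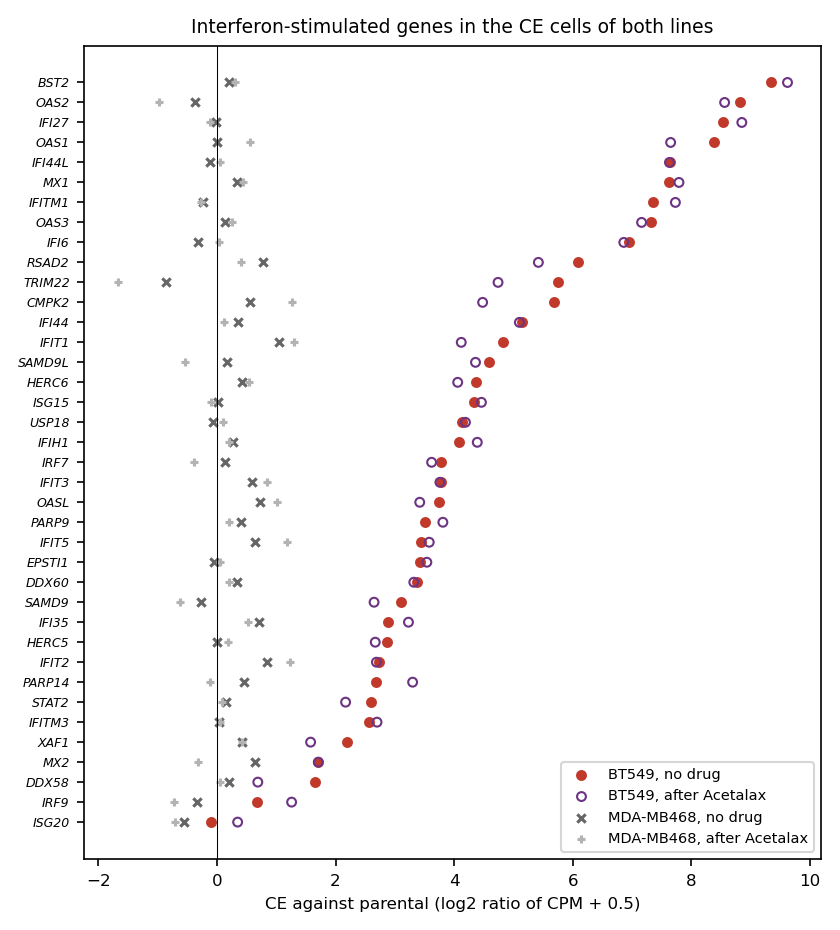
Log2 ratio of CE to parental cells for 38 of the 39 interferon-stimulated genes used, ordered by the untreated BT549 ratio, in BT549 (red dots without drug, open circles after Acetalax) and MDA-MB468 (crosses and plus signs). In BT549 all but ISG20 lie above 0 in both pairs, and in MDA-MB468 the medians are 0.17 and 0.12.

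Genes of MHC class I presentation, which load peptides on the molecules that T cells read, were also higher. Of 16 genes 14 averaged 1 CPM or more, with a median log2 ratio of 1.91 without drug and 2.15 after Acetalax. In both pairs 11 of the 14 were 2-fold higher and 0 lower, beside 5.59% and 2.38% of all genes. edgeR called 14 of 16 tested members higher and 0 lower, beside 13.0% and 9.57%. HLA-B, a heavy chain, was at 2 and 2.37 CPM in parental and 132 and 177 CPM in CE cells, 65.7-fold higher without drug (95% interval 53.5 to 81.7). HLA-C, another heavy chain, was at 58.1 and 62.7 against 316 and 384 CPM. HLA heavy chains vary between people and resemble each other, so their counts are uncertain. B2M, the shared light chain, rose from 348 and 408 to 1591 and 1981 CPM, and PSMB9, a subunit of the immunoproteasome whose gene overlaps others on the opposite strand, from 5.35 and 4.28 to 52.5 and 48.4 CPM. Of 26 genes of the ordinary ubiquitin-proteasome system 0 passed 2-fold in both pairs, with medians of 0.00 and 0.09. edgeR called 1 of them higher and 3 lower, beside 13.0% and 9.57% of all genes.

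**Figure D4:**
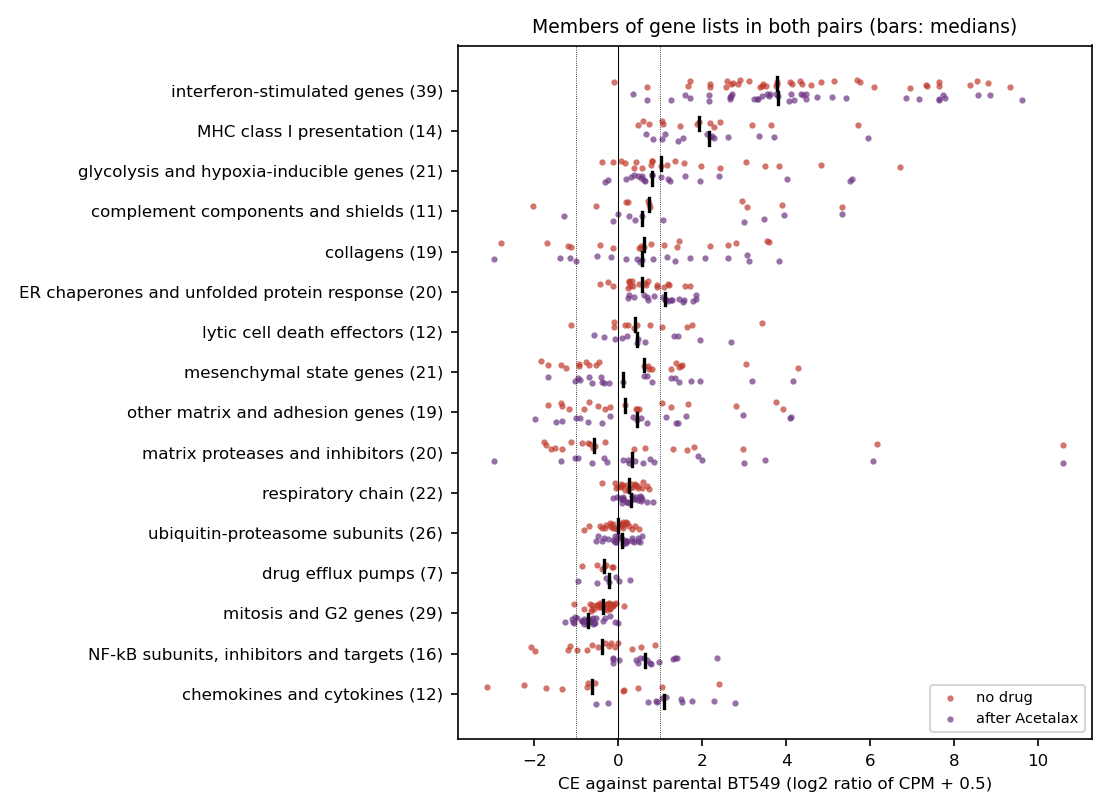
Log2 ratio of CE to parental BT549 cells for the members of 16 gene lists (number of members used in brackets), without drug (red) and after Acetalax (purple), with black bars at the medians and dotted lines at 2-fold. Interferon-stimulated genes have medians of 3.78 and 3.81 and MHC class I genes of 1.91 and 2.15. The last 2 lists have medians on opposite sides of 0 in the 2 pairs, and so do matrix proteases and inhibitors (-0.59 and 0.32).

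Glycolysis and hypoxia-inducible genes were higher, though not all of them. Of 21 members used, 9 were 2-fold higher in both pairs and 0 lower, beside 5.59% and 2.38% of all genes. edgeR called 14 of 21 higher and 0 lower, beside 13.0% and 9.57%, and the median log2 ratios were 1.01 and 0.79. NDRG1, a stress-responsive gene induced by low oxygen, was at 0.793 and 1.05 CPM in parental and 135 and 72.6 CPM in CE cells, 170-fold higher without drug (95% interval 123 to 243). SLC2A3, a high-affinity glucose transporter, was at 1.08 and 0.941 against 44.5 and 65.7 CPM. CA9, a membrane carbonic anhydrase and a classic marker of hypoxia, was at 0.33 and 0.112 against 11.3 and 9.4 CPM, and its gene overlaps another on the opposite strand. BNIP3, a mitophagy receptor, was at 47.4 and 40.2 against 257 and 156 CPM, and lactate dehydrogenase LDHA at 644 and 650 against 1429 and 1465 CPM. VEGFA, the angiogenic factor, did not pass the test (227 and 204 against 173 and 171 CPM, edgeR adjusted p = 0.0995), nor did the glucose transporter SLC2A1 (0.486). PFKFB4, a regulator of glycolysis, was higher mainly without drug, at 2.38 and 1.16 CPM in parental and 32 and 2.02 CPM in CE cells.

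The promoter of BNIP3 is shown with the letters ACGTG, the core that hypoxia-inducible factors are known to bind, in capitals; it holds 2 overlapping matches on opposite strands.
BNIP3, chr10:131981924-131982173, minus strand: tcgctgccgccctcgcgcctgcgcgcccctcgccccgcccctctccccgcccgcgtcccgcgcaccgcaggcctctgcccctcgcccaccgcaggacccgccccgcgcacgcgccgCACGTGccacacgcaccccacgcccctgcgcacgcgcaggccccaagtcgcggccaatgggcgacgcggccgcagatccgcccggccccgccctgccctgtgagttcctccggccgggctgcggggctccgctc
ACGTG on either strand was found in 10 of 18 promoters of the list (55.6%) and in 18.7% of all promoters, and a match of so few letters says little about any single gene. The list's share describes its members and says nothing of the CE difference.

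Chaperones of the endoplasmic reticulum, which fold secreted and membrane proteins, were higher in CE cells already without drug. Of 20 genes, all used, 5 were 2-fold higher and 0 lower in both pairs, beside 5.59% and 2.38% of all genes. edgeR called 13 higher and 0 lower, beside 13.0% and 9.57%. Their median log2 ratio was 0.57 without drug and 1.12 after Acetalax. Calreticulin (CALR), a lectin chaperone that binds calcium, was at 835 and 983 CPM in parental and 2739 and 3537 CPM in CE cells, 3.28-fold higher without drug (95% interval 3.24 to 3.32). The disulphide isomerase PDIA4 was at 211 and 218 against 634 and 779 CPM, and HSP90B1, which encodes GRP94, at 628 and 735 against 1419 and 2133 CPM. HSPA5, which encodes the chaperone BiP, differed more after Acetalax (1313 against 4466 CPM) than without it (917 against 1437 CPM). The stress sensor gene ERN1 and its target XBP1 did not pass the test (edgeR adjusted p = 0.739 and 0.918). Cytosolic heat shock chaperones gave another picture, with HSPB1 higher (347 and 339 against 802 and 753 CPM) and HSP90AA1 lower (4145 and 3566 against 1810 and 1772 CPM). Of 11 members edgeR called 1 higher and 5 lower, beside 13.0% and 9.57% of all genes.

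The endoplasmic reticulum stress element, the letters CCAAT, any 9 bases and CCACG on either strand, was in 6 of 19 promoters of this list (31.6%) and in 0.0806% of all promoters. That share describes how the list was composed and says nothing of the CE difference. The promoters of CALR, with 1 match, and HSP90B1, with 2 matches, are shown with the matches in capitals.
CALR, chr19:12938359-12938608, plus strand: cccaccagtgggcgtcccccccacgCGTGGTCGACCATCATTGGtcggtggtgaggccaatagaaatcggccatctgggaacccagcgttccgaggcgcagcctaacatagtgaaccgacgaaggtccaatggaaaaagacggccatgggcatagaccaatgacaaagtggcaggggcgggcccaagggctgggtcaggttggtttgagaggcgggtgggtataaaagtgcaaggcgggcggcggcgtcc
HSP90B1, chr12:103930160-103930409, plus strand: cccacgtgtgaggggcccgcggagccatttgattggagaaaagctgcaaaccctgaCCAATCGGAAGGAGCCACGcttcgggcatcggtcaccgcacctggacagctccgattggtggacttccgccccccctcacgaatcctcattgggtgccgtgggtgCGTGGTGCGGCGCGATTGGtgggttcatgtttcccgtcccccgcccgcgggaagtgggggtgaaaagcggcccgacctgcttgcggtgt

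Genes of the extracellular matrix changed in both directions. Of 19 collagen chain genes used, 8 were 2-fold higher and 4 lower in both pairs, beside 5.59% and 2.38% of all genes, and edgeR called 11 higher and 4 lower of 19 tested, beside 13.0% and 9.57%. COL3A1, a fibrillar chain, was at 117 and 111 CPM in parental and 1366 and 967 CPM in CE cells, 11.6-fold higher without drug (95% interval 11.3 to 12). COL6A1 and COL6A2, chains of the beaded filament collagen VI, were at 34.6 and 30.3 against 245 and 258 CPM and at 17.4 and 16.3 against 213 and 237 CPM, while COL6A3, the third chain of the same molecule, did not pass the test (6.3 and 6.72 against 9.33 and 9.84 CPM, edgeR adjusted p = 0.0902). COL7A1, the anchoring fibril chain, fell from 10.9 and 20.8 to 1.14 and 2.22 CPM. SPARC, a collagen-binding matricellular protein, rose from 408 and 386 to 3392 and 3491 CPM, and TGFBI, a matrix protein induced by TGF-beta, from 74.8 and 92.6 to 1474 and 1665 CPM. Fibronectin (FN1) fell from 1516 and 1590 to 583 and 838 CPM, and the proteoglycan versican (VCAN) from 226 and 188 to 70.2 and 47.2 CPM.

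Matrix proteases showed the same mixture. Of 20 protease and inhibitor genes used, 6 were 2-fold higher and 3 lower in both pairs, beside 5.59% and 2.38% of all genes. edgeR called 7 higher and 6 lower, beside 13.0% and 9.57%. The median log2 ratio was -0.59 without drug and 0.32 after Acetalax. TIMP1 was higher beside TIMP3, at 152 and 173 against 527 and 644 CPM. The collagenase MMP1 was lower, at 17.8 and 20.4 against 5.52 and 7.53 CPM, and so was MMP14, a membrane protease that activates MMP2, at 1083 and 1295 against 428 and 630 CPM.

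Mesenchymal state genes did not move together. Of 21 used, 6 were 2-fold higher and 2 lower in both pairs (5.59% and 2.38% of all genes), and edgeR called 10 higher and 9 lower (13.0% and 9.57% of all genes). The transcription factor TWIST1 rose from 48.3 and 57.8 to 138 and 147 CPM, and the collagen cross-linking enzyme LOX from 278 and 298 to 760 and 1143 CPM. Smooth muscle actin (ACTA2) fell from 119 and 106 to 37.1 and 32.8 CPM, and N-cadherin (CDH2) from 207 and 236 to 108 and 152 CPM. The simple-epithelial keratins KRT8 and KRT18 rose, KRT8 from 1.17 and 0.829 to 33.8 and 24.9 CPM and KRT18 from 6.21 and 4.08 to 47.2 and 30.8 CPM, while KRT7 fell from 242 and 251 to 87.5 and 118 CPM. KRT8 and KRT18 overlap on opposite strands, and because the strand setting of the counting is not given in the sources used here, their reads cannot be told apart with certainty. Of the 22 epithelial state genes 5 averaged 1 CPM or more. In both pairs 1 of the 5, OCLN, was 2-fold lower and 0 higher, beside 2.38% and 5.59% of all genes.

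Complement genes showed differences both ways. C1R and C1S, the proteases of the first complement component, rose from 14 and 13.2 to 216 and 210 CPM and from 38.6 and 36 to 301 and 291 CPM. SERPING1, their inhibitor, had 3 counts in each parental library and was at 22.4 and 22.5 CPM in CE cells, a ratio of 339 without drug (95% interval 116 to 1645). CD55, a shield that dismantles complement convertases on the cell surface, was lower, at 104 and 250 against 25 and 102 CPM. In all, 4 of 11 members were 2-fold higher and 1 lower in both pairs, beside 5.59% and 2.38% of all genes. edgeR called 6 higher and 1 lower, beside 13.0% and 9.57%.

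Lytic cell death effectors open or rupture the plasma membrane of dying cells. Of 12 used, 4 were 2-fold higher and 0 lower in both pairs, against 5.59% and 2.38% of all genes, and edgeR called 6 of 13 tested higher and 1 lower, against 13.0% and 9.57%. NINJ1, which ruptures the plasma membrane at the end of lytic death, was at 11 and 9.29 CPM in parental and 38.4 and 37 CPM in CE cells, 3.49-fold higher without drug (95% interval 3.17 to 3.86). DFNA5, which encodes the pore-forming gasdermin E, was at 27.4 and 23.3 against 85.6 and 63.4 CPM. The inflammatory caspase CASP4 was at 12.4 and 9.27 against 26.1 and 23.9 CPM. CASP1 had 1 count in the untreated parental library and was at 5.1 CPM in CE cells, a ratio of 231 with a wide interval (41.2 to 9175). PPIF, a regulator of the mitochondrial permeability pore, fell by the test (199 and 437 against 91 and 291 CPM, edgeR adjusted p = 0.0106).

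Genes that could change the drug's fate in the cell differed by group. None of 7 efflux pump genes used passed 2-fold in either pair, with medians of -0.34 and -0.23. edgeR called 1 of 9 tested pump genes higher and 1 lower, close to the 13.0% and 9.57% of all genes, the latter ABCC5, at 48.7 and 35.1 CPM in parental and 34.2 and 17.6 CPM in CE cells. Of 13 esterases and conjugating enzymes 3 averaged 1 CPM or more, none past 2-fold. Of 4 tested, edgeR called 0 higher and 1 lower, beside 13.0% and 9.57% of all genes, and DESeq2 called 0 either way. CES2, a carboxylesterase, was at 31.3 and 16.9 CPM in parental and 53.1 and 18.7 CPM in CE cells (edgeR adjusted p = 0.137). Of 12 tested enzymes of phase I oxidation edgeR called 3 higher and 4 lower, beside 13.0% and 9.57% of all genes. In both pairs 2 of 8 used were 2-fold lower and 0 higher, beside 2.38% and 5.59%. The aldo-keto reductases AKR1C3 and AKR1C1 were lower in both pairs, AKR1C3 at 15.7 and 12.4 against 0.853 and 0.62 CPM, 18.4-fold lower without drug (13.7 to 25.2). They are close copies of each other, so reads they share were not counted. The microsomal glutathione transferase MGST1 was higher, at 0.286 and 0.47 against 8.47 and 9.42 CPM, with other genes overlapping it on the opposite strand. Of 13 genes of the sodium pump, sodium transport and water channels, none passed 2-fold in either pair. Without drug 7.39% of all genes were 2-fold higher and 3.96% lower, so few were due in so short a list. Of 18 tested members edgeR called 3 higher and 1 lower, beside 13.0% and 9.57% of all genes.

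The largest falls were smaller than the largest rises. MEG3, a maternally expressed imprinted noncoding RNA on chromosome 14, was at 73.9 and 71.4 CPM in parental and 0.508 and 0.598 CPM in CE cells, 146-fold lower without drug (95% interval 101 to 219). Among protein-coding genes, OR2T8, an olfactory receptor gene, was at 13.2 and 18.9 CPM in parental cells and had 3 counts in the untreated CE library, 243-fold lower (82.7 to 1181). PAK6, a kinase that acts downstream of small GTPases, was at 35.2 and 15.1 against 0.544 and 0.421 CPM, 64.6-fold lower (45.1 to 96.1). MECOM, which encodes the transcription factor EVI1, was at 13.6 and 6.11 against 0.2 and 0.111 CPM, 68.3-fold lower (37.9 to 138). NTSR1, the neurotensin receptor, was at 42.6 and 18.1 against 2.18 and 1.06 CPM.

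Other genes with large falls had varied roles. WNT7B, a secreted ligand, was at 14.5 and 7.88 CPM in parental and 0.435 and 0.288 CPM in CE cells. LTF, which encodes the iron-binding lactoferrin, was at 14.1 and 19.2 against 0.454 and 0.554 CPM. PTPRZ1, a receptor tyrosine phosphatase, was at 28.3 and 25.8 against 1.56 and 1.82 CPM, and the scaffold AKAP12 at 24.5 and 21 against 2.41 and 1.37 CPM. TNFRSF10D, a decoy receptor for the death ligand TRAIL, was at 11.6 and 9.52 against 0.889 and 0.443 CPM. The 15 genes with the largest falls were chosen for low ratios in both pairs, so that their CE libraries lay below the parental ones by that choice. DUSP4, a phosphatase that turns off ERK, fell from 193 and 177 to 9.51 and 23.8 CPM, and GDF15, a stress-induced secreted factor, from 390 and 709 to 40.3 and 275 CPM.

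Mitosis genes were lower by small amounts. Of 29 mitosis and G2 genes used, 0 were 2-fold lower in both pairs, but 16 of 30 tested fell and 0 rose by edgeR, beside 9.57% and 13.0% of all genes, and the medians were -0.36 without drug and -0.72 after Acetalax. ECT2, which directs cytokinesis, was at 243 and 251 CPM in parental and 115 and 126 CPM in CE cells, and CDK1 at 163 and 187 against 103 and 106 CPM. Of 25 DNA replication and G1-S genes, edgeR called 2 higher and 6 lower, beside 13.0% and 9.57% of all genes, with 0 past 2-fold in either pair and medians of -0.12 and -0.19.

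Some differences of the untreated pair were absent or turned round after the drug. IL8, a neutrophil chemokine, was at 79.5 CPM in parental and 8.55 CPM in CE cells without drug, 9.3-fold lower (95% interval 8.45 to 10.3), but at 358 and 680 CPM after Acetalax. LIF, a cytokine of the IL6 family, was at 210 and 44.1 CPM without drug and at 373 and 697 CPM after it. HAS3, a hyaluronan synthase, was at 196 and 48.9 CPM without drug and 179 and 405 CPM after it, 2-fold in opposite directions, as were NAV3 and HBEGF, the only other genes of this kind. The retinaldehyde dehydrogenase ALDH1A3 was at 116 and 25.5 CPM without drug and at 122 and 104 CPM after it. As groups, 12 chemokine and cytokine genes had medians of -0.63 without drug and 1.09 after Acetalax, and 16 genes of NF-kB subunits, inhibitors and targets had -0.39 and 0.64. The change of sign was not particular to these lists. It was also seen in others, such as EGFR ligands and growth factors (-0.79 and 0.74) and immediate early genes (-0.17 and 0.57). None of the genes IL8, LIF, HAS3 and ALDH1A3 passed the edgeR test of a CE term common to both pairs. In the edgeR fit over all genes with a count, IL8, LIF and ALDH1A3 did pass (adjusted p = 1.14e-08, 3.02e-04 and 2.05e-11) and HAS3 did not (0.0859). IL8 and LIF passed there although their pairs went in opposite directions, so a pass in that fit does not show a difference common to both pairs.

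Of the 5 genes named as higher without drug alone, none reached 3-fold. HOXB8, a homeobox factor, was at 8.79 CPM in parental and 24.8 CPM in CE cells without drug, and at 5.58 and 2.57 CPM after it. SNAI1, a repressor of E-cadherin, was at 3.02 and 8.67 CPM without drug and at 4.3 and 4.63 CPM after it. JAG1, a Notch ligand, was at 12.3 and 27.6 CPM without drug and at 5.6 and 4.37 CPM after it. Each of these comparisons rests on 1 library a side, and the CE library after Acetalax is the one that stood apart.

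Small differences followed chromosomes. Among the 10230 genes that averaged 5 CPM or more, the median log2 ratio was 0.02 without drug and 0.10 after Acetalax. It was lowest on chromosome 9 (-0.42 and -0.40 over 434 genes), chromosome 22 (-0.38 and -0.32 over 242 genes) and chromosome 14 (-0.36 and -0.29 over 336 genes), and highest on chromosome 11 (0.39 and 0.46 over 576 genes) and chromosome 7 (0.23 and 0.26 over 466 genes). The shift ran along each of these chromosomes: in runs of 25 neighbouring genes, all 17 runs of chromosome 9, all 13 of chromosome 14 and all 9 of chromosome 22 had a median below 0 in both pairs, and 0 of 23 runs on chromosome 11 and 0 of 18 on chromosome 7 did. In MDA-MB468 the medians of these 5 chromosomes, picked for their BT549 values, lay between -0.03 and 0.03 without drug. Other chromosomes were shifted there. Chromosome 6 had medians of -0.33 and -0.31 in MDA-MB468, and was also low in BT549 (-0.22 and -0.13). Chromosome 21 had -0.19 and -0.25 in MDA-MB468 but 0.11 and 0.23 in BT549. TIMP3 and IFI27, on chromosomes 22 and 14, lie on chromosomes with low medians, and MEG3 lies on chromosome 14.

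**Figure D5:**
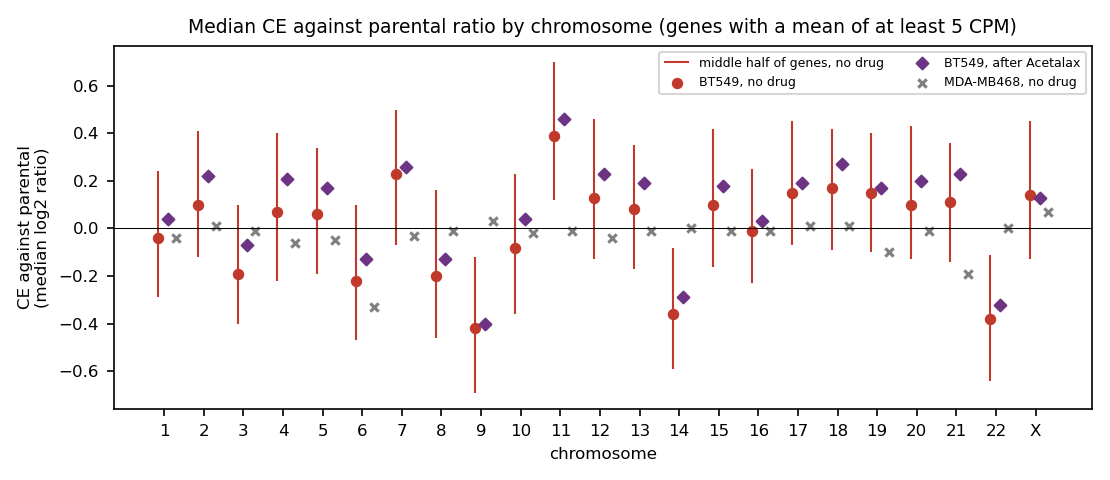
Median log2 ratio of CE to parental cells by chromosome for genes that averaged 5 CPM or more, in BT549 without drug (red, with lines over the middle 50% of genes) and after Acetalax (purple), and in MDA-MB468 without drug (grey crosses). Chromosomes 9, 14 and 22 are lowest and chromosome 11 highest in both BT549 pairs.

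Over all genes the CE difference of BT549 was often unlike that of MDA-MB468. The edgeR test of the difference between the lines called 2403 of 19693 genes (12.2%), 1438 of them higher and 965 lower in BT549, or 1199 and 1352 with scaling by the total count. With 1 drug term for both lines it called 1208, 829 higher and 379 lower. The 5 genes with the smallest p were TIMP3, BST2, LY6E, OAS3 and MX1. LY6E, an interferon-inducible membrane protein, was at 40.9 and 43.5 CPM in parental and 2078 and 2329 CPM in CE cells of BT549, 50.8-fold higher without drug (95% interval 48.5 to 53.2), and had a log2 ratio of -0.07 in MDA-MB468. Calreticulin, with a log2 ratio of 1.71 in BT549 and -0.31 in MDA-MB468 without drug, also differed (edgeR adjusted p = 7.16e-05), whereas fibronectin was lower in both lines (-1.38 and -1.38) and did not pass the test of the difference (edgeR adjusted p = 0.238).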

How the data were processed

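RNA of parental and CE cells of BT549 and MDA-MB468, untreated or given Acetalax (6 hours, 1 μmol/L), was measured by polyA RNA-seq in 8 libraries, 1 per condition. The authors aligned reads to hg19 with STAR (version 2.7.11b in the submitters' processing notes) and deposited raw counts per gene. The annotation and the strand column are not given in the sources used here. The table's 58154 rows hold 55679 identifiers, 1392 of them listed repeatedly and kept 1 time, and 28 symbols turned into dates were restored through the identifier. No row lacked a gene.

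From the deposited counts, CPM was computed with TMM factors over the 4 BT549 libraries (edgeR 4.0.16, R 4.3.3), and the log2 ratio after adding 0.5 CPM. Genes averaging 1 CPM or more were used. Intervals are exact conditional binomial intervals (95%) and cover counting error only, and a count of 0 was set against a floor of 3 counts. edgeR's quasi-likelihood test with filterByExpr and Benjamini-Hochberg adjustment was run for the CE term (drug and CE terms, 4 libraries) and for the difference of that term between lines (8 libraries). In simulated data it called 93% of 2-fold and 100% of 4-fold changes of 200 genes among 16883 in the fit of 4 libraries, with 8 false calls. These rates describe the simulated libraries only. In the real fit the 1 residual degree of freedom is the amount by which the CE difference depends on the drug. How often the test misses or wrongly calls a gene in the deposited libraries was therefore not measured.

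The comparison, the gene lists (51) and the tests were chosen with earlier results of these data known. Named genes are the 15 protein-coding genes each way with the largest smaller log2 ratio of both pairs (averaging 5 CPM or more, 2-fold the same way in both), up to 4 members each way of each list under the same fold and averaging 1 CPM or more, 5 each way past 2-fold without drug and under 1.2-fold or opposite after Acetalax, the 5 with the smallest p for the difference between lines, TRPM4, and cell type markers. List members given outside this rule, with interferons, their receptors and sensors, NAV3, HBEGF and genes switched on or off, were chosen after their values were seen. Alternatives were total-count and DESeq2 scaling (DESeq2 1.42.0), 0.1 or 1 CPM added, a mean of 5 CPM or no filter, and the log2(FPKM+1) difference of the study's methods. Sequences are from RefSeq. Promoters were matched by gene identifier or symbol for 9889 of 12862 genes. Some genes covered by these rules are not reported here.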

Additional observations from a re-analysis of the deposited data

Results flagged for a closer look

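The effect of chronic exposure differed between the 2 cell lines for 2403 genes in the edgeR test of the difference itself over 8 libraries. The largest statistics belonged to 5 genes, with a log2 fold change in BT549 minus that in MDA-MB468 of 15.38 for TIMP3, 10.00 for BST2, 7.50 for MX1, 7.11 for OAS3 and 5.67 for LY6E (edgeR adjusted p between 8.65e-08 and 8.88e-07). For TIMP3 both lines moved, in opposite directions: the log2 ratio without drug was 10.60 in BT549 and -2.30 in MDA-MB468. For the other 4 genes the MDA-MB468 ratio without drug lay between -0.07 and 0.34. The fitted value of TIMP3 rests on 4 and 6 counts in the parental BT549 libraries.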

How the results depend on the processing

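No paired analysis was possible because each condition has 1 library, beyond the drug term of the CE fit, which sets each CE library against the parental library of the same treatment. For the same reason no library could be left out, since 3 BT549 libraries leave no residual degree of freedom. With the log2(FPKM+1) difference, 509 genes were 2-fold higher and 282 lower without drug, 342 higher and 152 lower in both pairs, and TRPM4 was at 0.52 instead of 0.72. That scale understates low genes by its construction. Among genes averaging 5 CPM or more, 189 were lower in both pairs. With 1 drug term for both lines, 1208 genes differed between the lines, 829 higher and 379 lower. The cause of that drop was not tested. The other counts stayed within 1.5 times of the reported ones. DESeq2 called 3063 genes for the CE term, 2995 of them also called by edgeR. With total counts 3784 were called, 3322 of them shared. Without a filter 5053 were called, 3824 of them shared. Of 760 values of the named genes other than TRPM4 under the alternatives, 222 moved by more than their counting interval. Among values at 2-fold or more in the main setting 0 changed sign, and smaller ones were not checked for this. TRPM4 kept its call in the 3 other fits (adjusted p 8.08e-04 to 0.0465). VIM lost it with DESeq2 (0.0578). Of 250 list medians 8 changed sign, in the lists of NRF2 and glutathione genes, p53 targets and ERBB receptors, whose main medians were 0.05, 0.03 and 0.02.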
